A study of Mus musculus with 5 samples.

Results

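The genes of the Wnt pathway were examined for binding of the transcription factors SOX11 and SOX4 in mouse keratinocytes. The set holds 46 of the 22380 protein-coding genes of the annotation and was taken as listed by role. It comprises 19 Wnt ligands, 12 receptors (10 Frizzled genes with *Lrp5* and *Lrp6*), 7 secreted inhibitors, 4 cytoplasmic proteins (*Axin1*, *Axin2*, *Apc* and *Ctnnb1*) and 4 nuclear factors (*Tcf7*, *Tcf7l1*, *Tcf7l2* and *Lef1*). A peak was counted for a gene if its center lay in the gene body or within 10 kb of it, or if the nearest transcription start of a protein-coding gene, at any distance, was that gene's. By this rule 107 of 21270 SOX11 peaks and 11 of 2669 SOX4 peaks belonged to the 46 genes.

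The cells were primary keratinocytes of newborn mice, labelled as of a mixed 129SvEx:C57BL/6 background, with the genotype Krt14-Cre;Sox11fl/fl;Sox4fl/fl, in which Cre driven by the keratin 14 promoter deletes both *Sox* genes in epithelial cells that use that promoter. Per the study's methods the Krt14-Cre line was on FVB/N and the floxed line also carried Sox12-/-. Whether the cells kept that allele is not given in the sources used here. All libraries, the control included, shared the double deletion. A lentivirus then supplied FLAG-tagged SOX11 or FLAG-tagged SOX4 under doxycycline control, and per the study these cells were treated with doxycycline before harvest. Chromatin was precipitated with an anti-FLAG antibody, so the binding measured is that of the introduced factors at the level the virus gave. There were 2 libraries of SOX11-FLAG, 2 of SOX4-FLAG and 1 control, which is named input in its title and IgG in its antibody field.

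The Wnt pathway carries a secreted signal to the nucleus. Wnt ligands bind Frizzled receptors with the LRP co-receptors, secreted inhibitors of the DKK and SFRP families keep ligand and receptor apart or block the co-receptor, and in the absence of ligand a complex of AXIN and APC marks beta-catenin, the product of *Ctnnb1*, for destruction. When the signal arrives beta-catenin accumulates and joins TCF and LEF proteins on DNA. In skin the pathway is known for starting hair follicles and for maintaining epidermal and follicular stem cells, and TCF/LEF proteins belong with SOX proteins to the family with an HMG-box DNA-binding domain.

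Each factor had 1 deposited list made from both libraries. A list holds peak positions alone, without heights, scores or p-values. Of the SOX11 peaks 21255 had a width of 258 bp, and of the SOX4 peaks 2663 had a width of 340 bp. The depth behind a peak is therefore unknown and no spread between replicates could be computed. The range in parentheses after a share is its 95% Wilson interval, for counting error only. Genes and peaks are not replicates, and no test was run. The lists hold no expression values, so neither the keratinocyte identity of the cells nor the deletion of *Sox11* and *Sox4* could be checked in them. A peak's number in its list is given below to identify it. What the order stands for is not stated in the sources used here, but SOX11 peaks that overlap a SOX4 peak came early, with a median number of 1971.5 against 10635.5 for the whole list.

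The sequences of 7 SOX11 peaks are shown because they were, for each role, the earliest peak shared with SOX4 or, for cytoplasmic proteins and nuclear factors, also the earliest peak in a promoter of one of the genes. They are the upper strand of mm9, the build of the lists, and bases in an annotated untranslated region were left out. The capitals mark the core of the SOX site (CATTGT or CTTTGT), of the AP-1 site (TGAGTCA or TGACTCA) or of the TCF/LEF site (CTTTGAA or CTTTGAT), on either strand. The *Wnt8b* peak lies between genes at chr19:44531975-44532232. The shared *Fzd2* peak is at chr11:102464825-102465082. The *Dkk3* peak lies in an intron of that gene at chr7:119287849-119288106. The shared *Ctnnb1* peak is at chr9:120828323-120828580 and the part of the promoter peak upstream of the start at chr9:120842356-120842517. The *Tcf7l2* peaks are at chr19:55787332-55787589, between genes, and at chr19:55816017-55816274, in the promoter.
Wnt8b shared peak: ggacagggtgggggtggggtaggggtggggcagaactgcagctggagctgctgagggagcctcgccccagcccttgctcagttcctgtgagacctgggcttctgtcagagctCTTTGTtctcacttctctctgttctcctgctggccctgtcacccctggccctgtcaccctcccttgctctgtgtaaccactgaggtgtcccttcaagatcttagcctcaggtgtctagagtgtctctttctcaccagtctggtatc
Fzd2 shared peak: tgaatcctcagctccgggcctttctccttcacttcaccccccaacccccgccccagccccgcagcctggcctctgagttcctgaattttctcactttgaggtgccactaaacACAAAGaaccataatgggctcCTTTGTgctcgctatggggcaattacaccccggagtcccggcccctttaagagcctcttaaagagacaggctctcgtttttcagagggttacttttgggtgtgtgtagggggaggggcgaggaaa
Dkk3 shared peak: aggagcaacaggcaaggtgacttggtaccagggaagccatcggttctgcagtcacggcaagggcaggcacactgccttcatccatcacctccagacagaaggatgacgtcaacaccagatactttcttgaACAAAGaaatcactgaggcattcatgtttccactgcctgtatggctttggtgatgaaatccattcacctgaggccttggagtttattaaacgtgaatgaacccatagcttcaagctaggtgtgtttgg
Ctnnb1 shared peak: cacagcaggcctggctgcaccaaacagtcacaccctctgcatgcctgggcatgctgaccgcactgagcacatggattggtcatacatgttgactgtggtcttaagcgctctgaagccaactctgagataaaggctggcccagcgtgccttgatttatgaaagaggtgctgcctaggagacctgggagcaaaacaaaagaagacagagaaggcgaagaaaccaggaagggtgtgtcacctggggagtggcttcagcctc
Ctnnb1 promoter peak: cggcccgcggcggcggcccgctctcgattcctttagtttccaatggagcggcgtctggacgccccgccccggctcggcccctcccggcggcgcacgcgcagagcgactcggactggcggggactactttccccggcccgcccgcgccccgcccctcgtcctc
Tcf7l2 shared peak: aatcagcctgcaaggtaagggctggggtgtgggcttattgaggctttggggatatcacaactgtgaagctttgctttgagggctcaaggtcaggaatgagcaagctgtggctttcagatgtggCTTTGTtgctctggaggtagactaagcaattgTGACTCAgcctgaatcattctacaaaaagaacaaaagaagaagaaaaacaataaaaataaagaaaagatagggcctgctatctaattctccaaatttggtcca
Tcf7l2 promoter peak: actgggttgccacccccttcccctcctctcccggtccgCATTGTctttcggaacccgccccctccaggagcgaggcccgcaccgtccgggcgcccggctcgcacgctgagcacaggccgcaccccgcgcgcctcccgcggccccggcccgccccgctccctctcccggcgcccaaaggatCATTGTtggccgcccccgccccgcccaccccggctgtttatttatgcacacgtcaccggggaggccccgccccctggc
The shared peaks of *Wnt8b* and *Dkk3* each held 1 SOX core near the middle, and the *Fzd2* one held 2 in opposite directions. The *Tcf7l2* promoter peak held 2 SOX cores, both CATTGT on the upper strand, and the shared *Tcf7l2* peak held an AP-1 core downstream of its SOX core. Neither *Ctnnb1* sequence held any of the 3 cores.

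SOX11 peaks were found at 33 of the 46 genes, which is 71.7% (57.5 to 82.7), against 57.0% of all protein-coding genes by the same rule. The median gene of the pathway had 2 SOX11 peaks and the median gene of the genome 1, and the means were 2.33 and 1.22. SOX4 peaks were found at 10 of the 46 genes, which is 21.7% (12.3 to 35.6), against 13.0% of all genes. Both factors had a peak at 9 genes and neither at 12. How far the 46 genes lay from all genes depended on the rule. When only peaks in the gene body or within 10 kb of it were counted, 26 genes or 56.5% kept a SOX11 peak, beside 50.7% of all genes, and 6 genes or 13.0% kept a SOX4 peak, beside 10.2%. When a peak was given only to the gene with the nearest start, the shares were 71.7% and 46.6% for SOX11 and 21.7% and 10.1% for SOX4. With 50 kb around the gene body, or the nearest start, they were 82.6% and 73.8% for SOX11. For SOX4 the 50 kb rule gave 23.9% and 22.9%, so there the pathway lay close to all genes. Gene length differed as well, with a median gene body of 22.6 kb for the pathway and 15.4 kb for all genes. Per 100 kb of gene body and 10 kb flanks there were 1.92 SOX11 peaks (exact Poisson interval 1.44 to 2.52) at the pathway genes and 1.19 at all genes.

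**Figure D1:**
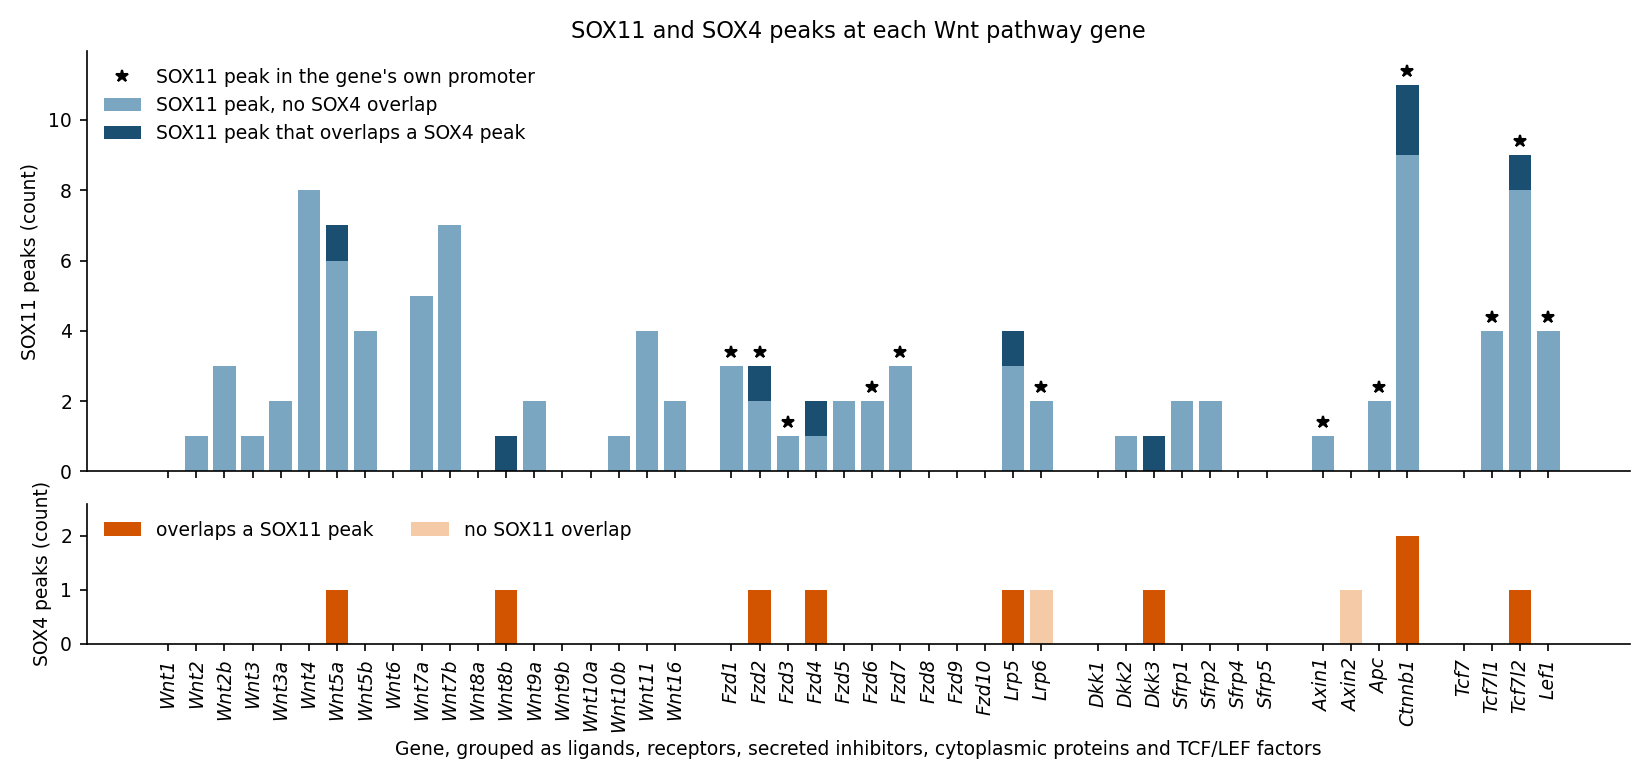
Number of SOX11 peaks (upper panel) and SOX4 peaks (lower panel) at each of the 46 genes, grouped by role; dark blue marks SOX11 peaks that overlap a SOX4 peak, stars mark genes with a SOX11 peak in their own promoter. *Ctnnb1* has 11 SOX11 peaks and *Tcf7l2* 9, stars stand over receptors, cytoplasmic proteins and TCF/LEF genes, and no ligand or secreted inhibitor has one.

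Among the ligands 14 of 19 had a SOX11 peak, 48 peaks in all. *Wnt1*, *Wnt6*, *Wnt8a*, *Wnt9b* and *Wnt10a* had no peak of either factor. *Wnt4*, a ligand with known roles in kidney and the female reproductive tract, had the most with 8, a count reached by 1.24% of all genes. Such shares, here and below, count peaks by the full rule, nearest start at any distance included. In the gene body and 10 kb flanks *Wnt4* had 1 peak. A single *Wnt4* peak lay in an intron of the gene, at +14.6 kb from the start. The other 7 formed a chain upstream, from -21.8 to -112 kb, between genes, and none overlapped a SOX4 peak. Their numbers in the list ran from 7697 to 19926, so 6 of these 7 peaks came after the middle of the list.

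*Wnt5a*, the main ligand of signaling without beta-catenin and a guide of cell movement and polarity, had 7 SOX11 peaks. All 7 lay upstream, from -14.1 to -298 kb, and 6 of them were in introns of the neighboring gene *Erc2*. The peak at -87.5 kb was the one shared with SOX4, where SOX11 peak 6952 at chr14:29230327-29230584 overlapped SOX4 peak 2529, and it held 1 SOX core. *Wnt7b*, a ligand known for its role in lung growth, also had 7 SOX11 peaks. Of these, 4 lay upstream from -33.5 to -71.8 kb, 2 in an intron and 1 past the end of the gene at +47.9 kb, nearest to the start of *Gm4825*. A count of 7 or more was reached by 1.86% of all genes. In the gene body and 10 kb flanks *Wnt5a* had 0 peaks and *Wnt7b* 3.

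*Wnt7a*, which patterns the developing limb, had 5 SOX11 peaks, 4 of them in its introns, and the earliest was number 1418. *Wnt8b*, a ligand of the developing forebrain, had 1 SOX11 peak, 35.9 kb upstream, and it was shared with SOX4 (SOX4 peak 1035). The remaining ligands with a peak had between 1 and 4. *Wnt5b* and *Wnt11* had 4 each, and 1 of the *Wnt5b* peaks was in the promoter of *Fbxl14*, a gene inside its annotated body. At *Wnt11* the 2 most distant peaks, at 130 and 136 kb, were in introns of *Uvrag*. Apart from *Wnt5a* and *Wnt8b*, no ligand had a SOX4 peak.

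Some ligand genes sit side by side on a chromosome, and they were set apart after the values had been seen. With a gap of at most 50 kb between gene bodies there were 4 such pairs. *Wnt6* and *Wnt10a*, 6.20 kb apart on chromosome 1, had no SOX11 peak. *Wnt10b* and *Wnt1*, 11.7 kb apart on chromosome 15, had 1 and 0. *Wnt9b* and *Wnt3*, 24.3 kb apart on chromosome 11, had 0 and 1, and *Wnt3a* and *Wnt9a*, 16.2 kb apart on the same chromosome, had 2 each. The 8 paired genes held 6 of the 48 ligand peaks, with a median of 0.5 per gene, and 4 of them or 50.0% (21.5 to 78.5) had a peak, an interval that holds the 57.0% of all genes. The 11 other ligands held 42, with a median of 4 and a highest count of 8. Of the 5 ligands without a peak 4 belonged to a pair, *Wnt8a* being the fifth. Paired genes also divide the sequence between them when peaks are given to the nearest start, and the part of this in the counts was not tested. In gene bodies and 10 kb flanks alone each paired gene had as many peaks as by the full rule. Among the other ligands *Wnt7a* had 4 in bodies and flanks, *Wnt5b* and *Wnt7b* 3 each, and *Wnt2*, *Wnt4*, *Wnt11* and *Wnt16* 1 each. There *Wnt2b*, *Wnt5a*, *Wnt8a* and *Wnt8b* had 0. *Wnt3a* had its first peak 1.58 kb upstream of a start, number 1332, the earliest of any ligand and with both a SOX and an AP-1 core. *Wnt9a* had its peaks in introns at +1.42 and +18.9 kb.

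**Figure D2:**
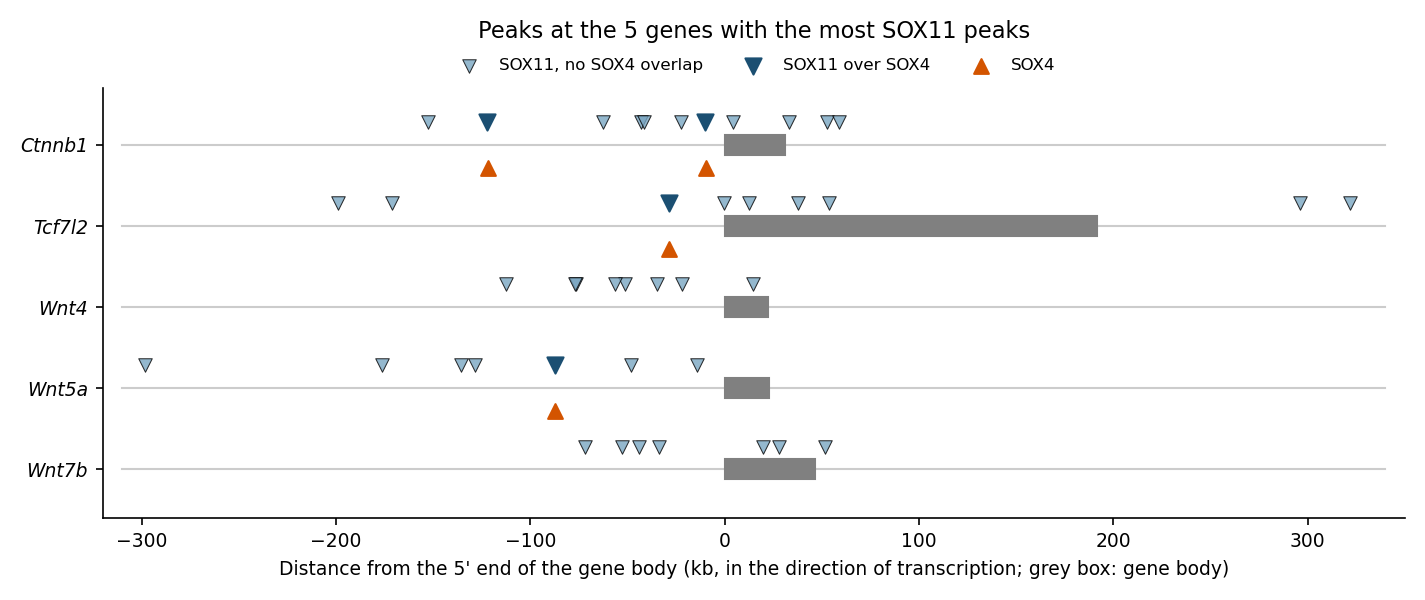
Positions of SOX11 peaks (triangles above the line) and SOX4 peaks (triangles below) along the 5 genes with the most SOX11 peaks, in kb from the 5' end of the gene body along the direction of transcription; grey boxes are gene bodies and triangles of peaks close together overlap. Where a gene has several starts these positions differ from the distances to the nearest start in the text. Most peaks of *Wnt4* and all of *Wnt5a* lie upstream, and 2 of the 11 *Ctnnb1* peaks and 1 of the 9 *Tcf7l2* peaks coincide with SOX4.

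Among the receptors 9 of 12 had a SOX11 peak, 22 peaks in all. *Fzd8*, *Fzd9* and *Fzd10* had no peak of either factor. A promoter was taken as 1 kb upstream to 100 bp downstream of an annotated start, and in these terms 6 of the 12 receptors had a SOX11 peak in a promoter of their own, against 23.1% of all genes. Distances are from the start to the peak center. The center lay 64 bp downstream at *Fzd1*, 45 bp downstream at *Fzd3*, 103 bp upstream at *Fzd6*, 158 bp upstream at *Fzd7* and 345 bp upstream at *Lrp6*. All of these except *Lrp6* are Frizzled genes, which encode the receptors that bind Wnt ligands through an extracellular cysteine-rich domain. *Fzd2* had 2 promoter peaks, with centers 28 and 792 bp upstream. They were numbers 651 and 717 of the SOX11 list, the earliest of any receptor, and the second overlapped SOX4 peak 798, the only SOX4 peak in a promoter of the 46 genes.

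The co-receptors differed in how the factors lay at their starts. *Lrp5* had SOX11 peak 1871, in an intron at chr19:3686108-3686365, with its center 328 bp downstream of the start and so outside the promoter as defined, and it overlapped SOX4 peak 801 at 326 bp. The other 3 *Lrp5* peaks were not shared, and the 2 farthest lay nearer to the start of *Ppp6r3*. At *Lrp6* the SOX11 peak 345 bp upstream (number 3347) and SOX4 peak 1486 at chr6:134516559-134516898, with its center in an exon 203 bp downstream, stood side by side with a gap of 301 bp. *Fzd4*, a receptor known for retinal vessel growth, had 2 SOX11 peaks beyond the gene's end, at +37.0 and +41.0 kb. The second, at chr7:96593774-96594031, was shared with SOX4, and there the overlapping SOX4 peak was number 277 and held both a SOX and an AP-1 core. *Fzd5* had 2 SOX11 peaks, at -18.5 and -58.1 kb, and no SOX4 peak.

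Of the 7 secreted inhibitors 4 had a SOX11 peak, 6 peaks in all, and none was in a promoter. *Dkk1*, which blocks the LRP co-receptors, had no peak of either factor, and neither had *Sfrp4* and *Sfrp5*, which encode secreted Frizzled-related proteins. *Dkk3*, a member of the DKK family that does not act on the co-receptors in the usual way, had 1 SOX11 peak, in an intron 14.6 kb from the start, and it was the earliest of all 107, number 273. It overlapped SOX4 peak 149, likewise the earliest of the 11. *Sfrp1* had SOX11 peaks at +74.7 and +105 kb, past the end of the gene. *Sfrp2* had them at -1.87 and +8.78 kb, each with an AP-1 core, and *Dkk2* had 1 at +135 kb.

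The 4 cytoplasmic proteins had 14 SOX11 peaks, and 11 of them were at *Ctnnb1*, a count reached by 0.402% of all genes. In the gene body and 10 kb flanks *Ctnnb1* had 3. The 11 comprised 1 promoter peak 34 bp upstream of a start (number 4004), 7 peaks between genes from -9.88 to -153 kb, and 3 downstream, in introns of the neighboring gene *Ulk4*, from +5.57 to +31.0 kb. SOX4 peaks overlapped 2 of the upstream ones. SOX11 peak 1502 at -9.88 kb overlapped SOX4 peak 2051, and SOX11 peak 5824 at -122 kb (chr9:120716194-120716451) overlapped SOX4 peak 2129. *Ctnnb1* was the only gene of the 46 with more than 1 SOX4 peak. The peak at -42.8 kb held 6 SOX cores and was not shared.

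The AXIN and APC scaffold genes had few peaks. *Axin1* had 1 SOX11 peak, centered 5 bp upstream of a start. *Apc* had 1 in its own promoter, 28 bp downstream of the start, and 1 in the promoter of *Srp19*, a neighbor within 10 kb. *Axin2*, which is itself a widely used target gene of beta-catenin, had no SOX11 peak. It had SOX4 peak 1891, 4.12 kb upstream, and the nearest SOX11 peak was 157726 bp away. The sequence of that peak is shown because it was 1 of only 2 SOX4 peaks of the pathway without SOX11, and it was chosen after its values were seen. The central 300 bp, at chr11:108777396-108777695, held none of the 3 cores, and the capitals mark a tandem repeat of 15 copies of the 5 bases GGATA.
Axin2 SOX4 peak: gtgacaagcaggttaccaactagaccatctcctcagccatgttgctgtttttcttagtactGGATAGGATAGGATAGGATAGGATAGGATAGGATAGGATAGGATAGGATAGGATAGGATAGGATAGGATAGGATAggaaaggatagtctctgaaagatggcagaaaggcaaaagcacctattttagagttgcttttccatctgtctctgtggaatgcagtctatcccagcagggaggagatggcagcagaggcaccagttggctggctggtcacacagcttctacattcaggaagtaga
Runs of 6 or more copies of a unit of 2 to 6 bases, 30 bp or longer, were found in 7.48% (4.23 to 12.9) of the SOX4 peaks outside SOX11 peaks, 4.12% (3.41 to 4.97) of those over SOX11 peaks and 2.65% (2.44 to 2.87) of SOX11 peaks. A unit could be AA, so runs of a single base were counted. SOX4 peaks, mostly of 340 bp, are wider than SOX11 peaks, mostly of 258 bp, and the part of width in these shares was not tested. Whether reads over such a repeat were placed correctly was not tested.

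The nuclear factors are the DNA-binding partners of beta-catenin. *Tcf7l2* had 9 SOX11 peaks, a count reached by 0.845% of all genes, and 4 of them lay in the gene body and 10 kb flanks. A promoter peak lay 155 bp upstream of the start (number 3645), 3 peaks were in its introns from +11.5 to +52.8 kb, and 2 lay past the gene at +139 and +165 kb, the latter with 4 SOX cores. Upstream there were 3, of which the 2 at -171 and -199 kb were in introns of *Vti1a*. The third, at -28.8 kb, was number 759 and overlapped SOX4 peak 635. *Tcf7l1*, a repressor in epidermal progenitors, had 4 SOX11 peaks, including 1 in its promoter 28 bp downstream of the start and 1 in an exon of *Tgoln1*. *Lef1*, which acts in the hair follicle matrix, also had 4. Its promoter peak was centered 98 bp downstream of a start, just inside the limit of 100 bp, and it had a further peak in an intron at +56.6 kb and 2 upstream at -159 and -185 kb. *Tcf7*, the member best known from T cells, had no peak of either factor. *Tcf7l2* was the only nuclear factor with a SOX4 peak.

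Set side by side by role, the counts lay furthest apart in promoters. The share of genes with any SOX11 peak was 73.7% (51.2 to 88.2) for ligands, 75.0% (46.8 to 91.1) for receptors and 57.1% (25.0 to 84.2) for inhibitors, and 3 of 4 in each of the other groups. A SOX11 peak in the gene's own promoter was found at 12 of the 46 genes, or 26.1% (15.6 to 40.3), close to the 23.1% of all genes. These 12 were 6 receptors, 3 cytoplasmic proteins and 3 nuclear factors, and none of the 19 ligands (0 to 16.8%) or 7 inhibitors (0 to 35.4%). The absence at ligands depended on the width of the promoter. With 1 kb to each side of the start *Wnt10b* was added, with its peak at +780 bp, as was *Lrp5* at +328 bp among the receptors. With 2 kb to each side *Wnt9a* at +1417 bp, *Wnt3a* at -1582 bp and *Sfrp2* at -1872 bp were added, which made 17 of the 46 genes against 30.5% of all genes.

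**Figure D3:**
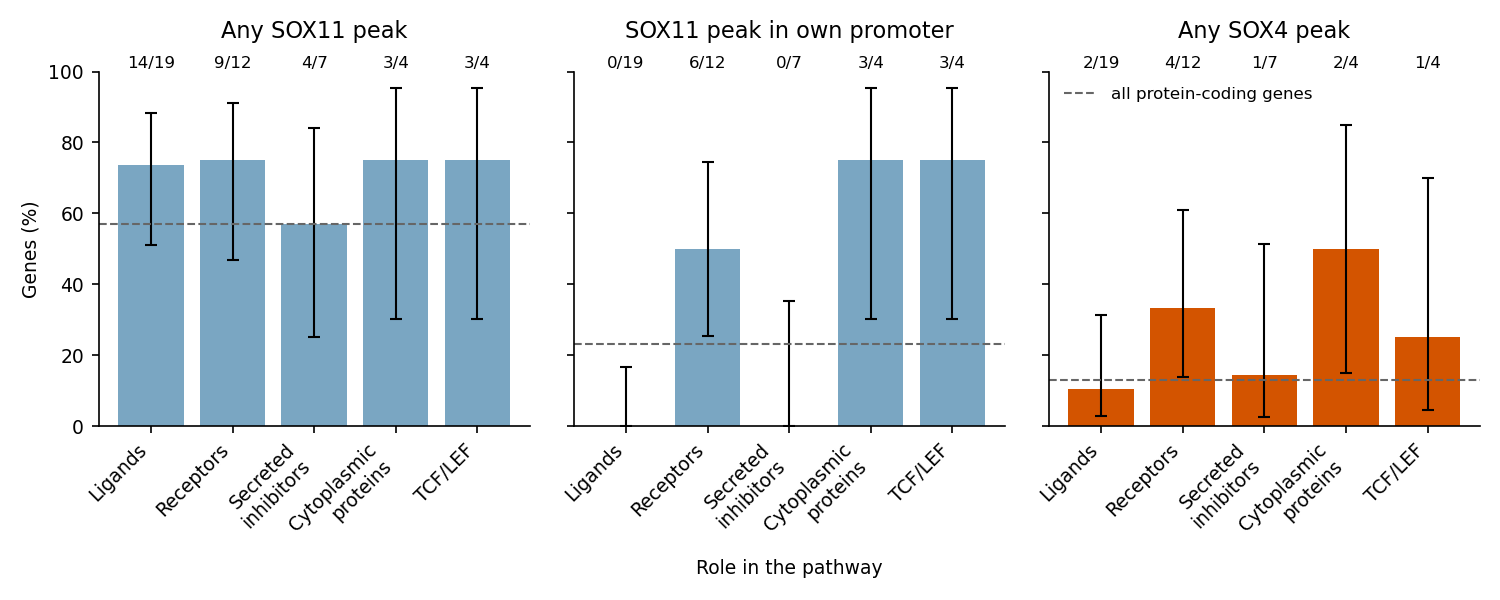
Percentage of genes of each role with any SOX11 peak, with a SOX11 peak in their own promoter and with any SOX4 peak; error bars are 95% Wilson intervals, counts stand above the bars and the dashed line is the share of all protein-coding genes. In the middle panel the ligands are at 0 of 19 and the receptors at 6 of 12, with a line at 23.1%.

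Promoter base composition went along with the presence of a peak across the genome. The ratio of observed to expected CpG in the promoter had a median of 0.600 for genes with a SOX11 peak in their own promoter and 0.319 for genes without. Within the pathway the medians were 0.654 with and 0.629 without such a peak, and ligands had a median of 0.622 beside 0.678 for receptors, 0.677 for nuclear factors, 0.574 for cytoplasmic proteins and 0.427 for inhibitors. A single promoter was used per gene, which at a gene with several starts may not be the one with the peak. The part of base composition in these counts was not tested.

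Most of the peaks were distant from a start. Over all 107, promoter peaks included, the median distance to the start of the gene they were counted for was 32.2 kb, and 65 lay over 20 kb and 19 over 100 kb from it. The distance to the nearest start of any gene, which is defined for all peaks alike, had a median of 25.0 kb at the pathway genes and 11.5 kb over the whole list. It was 30.9 kb for ligands, 13.5 kb for receptors, 44.7 kb for inhibitors, 23.7 kb for cytoplasmic proteins and 38.0 kb for nuclear factors. Promoters held 14.0% (8.68 to 21.8) of the 107 peaks, introns 38.3% and the space between genes 46.7%, and for the whole list these shares were 23.3%, 33.4% and 40.0%. Introns of genes other than the one counted held 17 of the 107, and 9 had their nearest start at another gene. Which gene, if any, such a peak acts on was not measured.

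**Figure D4:**
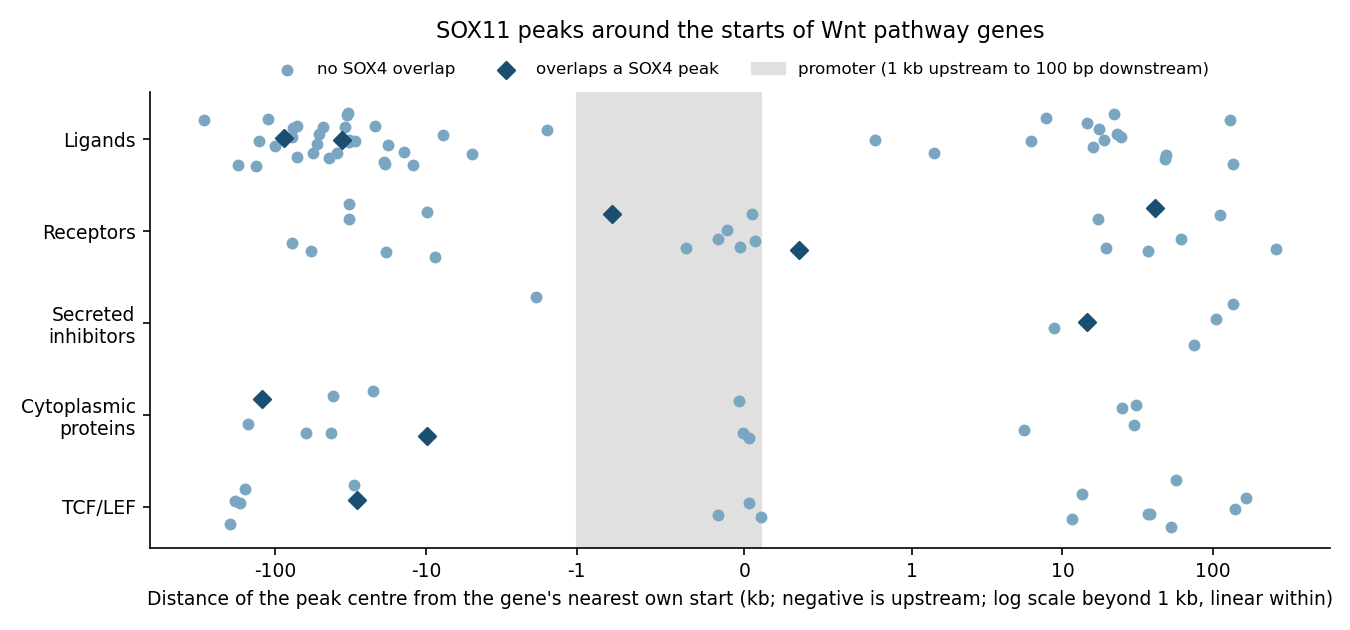
Distance of each of the 107 SOX11 peak centers from the nearest start of its own gene in kb, by role (linear within 1 kb, log scale beyond; vertical scatter is for visibility only), with diamonds for peaks that overlap a SOX4 peak and the promoter in grey. Ligand peaks lie to both sides of the promoter with none inside it, while receptors, cytoplasmic proteins and TCF/LEF genes have peaks in it.

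The overlap of the 2 lists at these genes could not be told from that of the whole list within counting error. Of the 107 SOX11 peaks 9 overlapped a SOX4 peak by at least 1 bp, which is 8.41% (4.49 to 15.2), against 11.9% of all SOX11 peaks. Genes with such a shared peak numbered 8 of 46, or 17.4%, against 12.3% of all genes. By role the shared peaks were 2 of 48 at ligands, 3 of 22 at receptors, 1 of 6 at inhibitors, 2 of 14 at cytoplasmic proteins and 1 of 17 at nuclear factors. In the other direction 9 of the 11 SOX4 peaks lay on a SOX11 peak, which is 81.8% (52.3 to 94.9), against 94.5% of the SOX4 list. The exceptions were the *Lrp6* and *Axin2* peaks. Only 1 of the 9 shared peaks, at *Fzd2*, was in a promoter.

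The SOX core was found in 54.2% (44.8 to 63.3) of the 107 SOX11 peaks and in 58.5% of all SOX11 peaks. Sequences of the same width 2 kb away held it in 23.4% (16.4 to 32.2) and 32.2%. The AP-1 core, the site of FOS and JUN proteins, was in 29.9% (22.1 to 39.2) of the peaks at pathway genes and 28.5% of all, with 3.74% and 4.59% in the shifted sequences. Both cores together were in 15.9% and 17.2%. The TCF/LEF core shares its first 5 letters with a form of the SOX core. It was in 8.41% (4.49 to 15.2) of the peaks at pathway genes and 7.90% of all, beside 6.54% and 10.5% in shifted sequences, so it was not above its neighborhood within counting error. The TEAD core (GGAATG) was in 21.5% (14.8 to 30.2) of the peaks at pathway genes and 22.8% of all, beside 16.8% (10.9 to 25.0) and 13.4% in shifted sequences. Its share at the pathway genes could not be told from that of their shifted sequences within counting error.

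**Figure D5:**
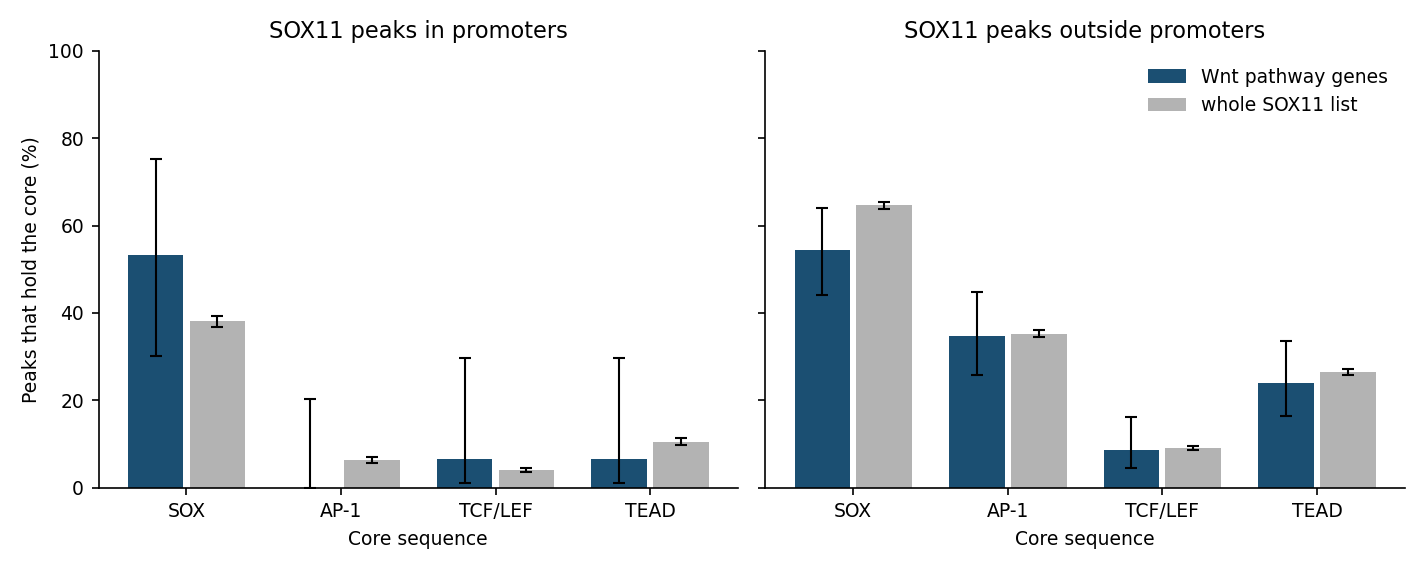
Percentage of SOX11 peaks that hold the SOX, AP-1, TCF/LEF or TEAD core, for the 15 promoter peaks and 92 other peaks at Wnt pathway genes (blue) and for the whole SOX11 list (grey); error bars are 95% Wilson intervals. The AP-1 core is in none of the 15 promoter peaks and in 34.8% of the others, beside 6.27% and 35.3% for the whole list.

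Cores were also counted by promoter and by role. No promoter peak of the pathway held the AP-1 core (0 of 15, 0 to 20.4%), against 6.27% of all promoter peaks, while outside promoters the shares were 34.8% and 35.3%. By role the AP-1 core was in 18 of 48 peaks at ligands, 7 of 17 at nuclear factors, 3 of 6 at inhibitors, 3 of 22 at receptors and 1 of 14 at cytoplasmic proteins. The SOX core was in 29 of 48, 8 of 17, 3 of 6, 13 of 22 and 5 of 14 in the same order. In promoters the SOX core was in 5 of 7 peaks counted for receptors (35.9 to 91.8%) and none of 4 counted for cytoplasmic proteins (0 to 49.0%), of which 1 was in the *Srp19* promoter. These intervals overlap, and the share of all SOX11 promoter peaks was 38.1%. Peaks shared with SOX4 held it in 8 of 9 cases, the exception being *Ctnnb1* at -9.88 kb, and peaks not shared in 51.0% (41.3 to 60.7). For the whole list these shares were 83.6% and 55.1%. None of the 17 peaks at the genes for TCF and LEF proteins held the TCF/LEF core (0 to 18.4%). That interval holds the 7.90% of all SOX11 peaks.

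A further 55 genes of the pathway encode, among others, R-spondins and their receptors, other receptors, further secreted inhibitors, kinases, Dishevelled proteins, co-repressors and planar polarity proteins. Of these 55 genes 41 or 74.5% (61.7 to 84.2) had a SOX11 peak and 18 or 32.7% (21.8 to 45.9) had one in their own promoter. For all genes these shares were 57.0% and 23.1%. A SOX4 peak was found at 15 of the 55, or 27.3% (17.3 to 40.2), against 13.0% of all genes. These were *Lgr4*, *Znrf3*, *Ryk*, *Porcn*, *Dkkl1*, *Dvl1*, *Dvl3*, *Gsk3b*, *Csnk1a1*, *Apc2*, *Ctnnd1*, *Bcl9*, *Tle1*, *Vangl1* and *Vangl2*. Of the 22 SOX4 peaks behind this count 5 had their nearest start at another gene. They were in the promoters of *Ccdc34* (counted for *Lgr4*), *Tead2* (*Dkkl1*), *Ap2m1* (*Dvl3*) and *Rps15* (*Apc2*) and in an exon of *Tas1r3* (*Dvl1*). *Vangl1*, a membrane protein of planar cell polarity, had 12 SOX11 peaks, more than any of the 46, and 2 SOX4 peaks. *Ctnnd1*, which encodes p120-catenin of cell junctions, had 3 SOX4 peaks, all on SOX11 peaks. *Ryk* had 2 SOX4 peaks, of which 1 (number 2107), in its intron 396 bp downstream of the start, overlapped no SOX11 peak. Of the 124 SOX11 peaks at these genes 21 or 16.9% (11.4 to 24.5) overlapped SOX4, and their density was 1.67 per 100 kb (1.33 to 2.06).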

How the data were processed

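Per the labels and the study's methods, the authors aligned single-end reads with Bowtie2 to mm9, marked and dropped duplicates (Picard), called peaks (HOMER, factor mode) and took out blacklisted regions (bedtools). Tool versions and the control given to HOMER are not given in the sources used here. The authors deposited 1 list of peak coordinates per factor, made from both libraries, a value other than counts, signal or score. The control had no list here. Starts were read as 0-based and are printed from 1.

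Peaks were compared with GENCODE M1 protein-coding genes and the mm9 sequence using Python 3.11.15, pandas 2.3.3 and pysam 0.24.0. All 46 genes and all 55 further pathway genes were matched by symbol or synonym. For *Fzd10* the protein-coding entry was used. A peak was placed by its center, first in promoters, then exons, introns or between genes. Intervals came from scipy 1.17.1. Named genes were those without any peak, those with a SOX4 peak, the 3 of each role with most SOX11 peaks and those with an own-promoter peak; a few further peaks are named beside a count or a promoter width. The steps were tested on simulated data. Genes, lists and comparisons were chosen with earlier results of these data known. The sequence of the earliest receptor promoter peak is not reported here. Microarray and reporter data were not used here.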

Additional observations from a re-analysis of the deposited data

How the results depend on the processing

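Of 102 alternatives to 19 values, 79 left the value within 1.5 times the count or within its interval and 23 moved it, and 18 of the 102, all on own-promoter counts, were added after the data had been seen. In the first 2669 SOX11 peaks, as many as the SOX4 list holds, 15 peaks belonged to the pathway and 11 genes had a peak. Of these 15 peaks 46.7% overlapped SOX4, 86.7% held the SOX core and 0.00% the TCF/LEF core. Peaks per 100 kb were 0.335 for ligands, 0.678 for receptors, 0.333 for cytoplasmic and 0.173 for nuclear proteins. In the full list they were 2.24 (1.37 to 3.45), 2.20 (1.17 to 3.77), 2.00 (0.734 to 4.35) and 1.73 (0.828 to 3.17) in the same order. For inhibitors the full list gave 0.877 (0.181 to 2.56), and all these Poisson intervals overlap. In the SOX11 list up to its middle the overlap was 17.3%, nuclear density 0.690, and own-promoter genes numbered 7, with 3 receptors. In the SOX4 list up to its middle 6 genes had a SOX4 peak and 100% of peaks lay on SOX11. Counting only gene bodies and 10 kb flanks left 6 genes with SOX4 and put 28.8% of SOX11 peaks in promoters. The 10-letter motifs with 1 mismatch gave 42.1% for SOX and 46.7% for AP-1, and 50 bp to each side of the center gave 42.1% and 15.9%. Own-promoter ligands were 1 with 1 kb and 3 with 2 kb to each side, and inhibitors 1 with 2 kb. The shorter lists hold fewer peaks by construction, and SOX11 peaks that overlap SOX4 came early in their list. Shares of all genes or of the whole list at the same cuts are not given here. Whether the pathway differs from them at these cuts was not tested. For the other moves the cause was not tested. Density by nearest start alone was not run, since it has no window. No paired analysis was possible because both libraries of a factor are in 1 list, and none could be left out. The unknown depth sets no floor for genes without a peak, so absence from the list is not absence of binding.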
